A study of Mus musculus with 10 samples.

Results

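Astrocytes are the glial cells that take up glutamate from synapses, convert it to glutamine, buffer water and potassium around vessels, and pass ions and metabolites to each other through gap junctions. In the amygdala, as elsewhere in the brain, they surround excitatory synapses, and the intermediate filament gene Gfap is known for rising when astrocytes react to injury. The 9 astrocyte genes described here were Slc1a2 and Slc1a3, the transporters GLT-1 and GLAST that clear glutamate; Glul, the glutamine synthetase; Gja1, the gap junction protein connexin 43; Aqp4, the water channel of astrocyte endfeet; Gfap; S100b, a calcium-binding protein; Aldh1l1, a folate enzyme used as a pan-astrocyte marker; and Gli3, a transcription factor of hedgehog signalling. They were chosen by name and taken from probe sets annotated to exactly 1 gene, and they were 9 of 16367 genes tested, with 181 probe sets.

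The arrays held RNA of amygdala from 3-month-old neuropsin-/- mice (called KO), backcrossed to C57BL/6 for 12 generations, and from wild-type C57BL/6 mice (called WT), with 5 arrays per genotype. Neuropsin is the secreted serine protease encoded by Klk8. Amygdalae came from 15 animals of each genotype and RNA was combined from 3 animals, per the series' design text, so each array was read as 1 pool, which hides the spread between single animals. The labels do not describe how the gene was disrupted, and all animals were perfused and prepared alike per the series' design text.

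Values are log2 expression values, and a gene level is the mean over those probe sets of the gene that averaged more than 4.94 over the 10 arrays, which is where the median of all probe sets lay. Any pair of arrays correlated at 0.958 to 0.987 over genes. On the first principal component of all gene levels WT arrays 4 and 5 lay at 20.5 and 23.5. The other 8 arrays lay between -14.2 and 7.45, and the highest of them were KO arrays 4 and 5, at 7.45 and 3.14. Results are also given without WT arrays 4 and 5. Those results keep KO arrays 4 and 5, so the genotypes are then not balanced on this component. Klk8 itself, over its 9 probe sets, averaged 5.02 ± 0.29 in KO and 5.17 ± 0.27 in WT (SD, n = 5 each), which does not separate the labels; over the 5 probe sets above the filter the difference was -0.39 (limma adjusted p = 0.693). Because dissected tissue was measured, fewer astrocytes and less RNA per astrocyte cannot be told apart.

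All 9 genes were measured above the filter, on 5 to 27 probe sets each, and none passed the test between the genotypes. In limma over all genes 0 of 9 passed an adjusted p of 0.05, against 0.0244% of all genes (4 of 16367), and 0 of 9 had an unadjusted p under 0.05, against 6.98% of all genes. An exact two-sided permutation of the 10 arrays, taken gene by gene and not adjusted, gave Gli3 a p of 0.0397 and the other genes 0.0873 or more. The KO minus WT differences ran from -0.16 to 0.16 on the log2 scale, 7 below 0 and 2 above, with a median of -0.04, while the median over all genes was -0.0019 and 50.7% of all genes were below 0. In no member did the KO arrays lie wholly apart from the WT arrays, which 1.55% of all genes did. The limma p-values set the difference of means against the spread between these pools, drawn in part from all genes, and not between single animals.

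**Figure D1:**
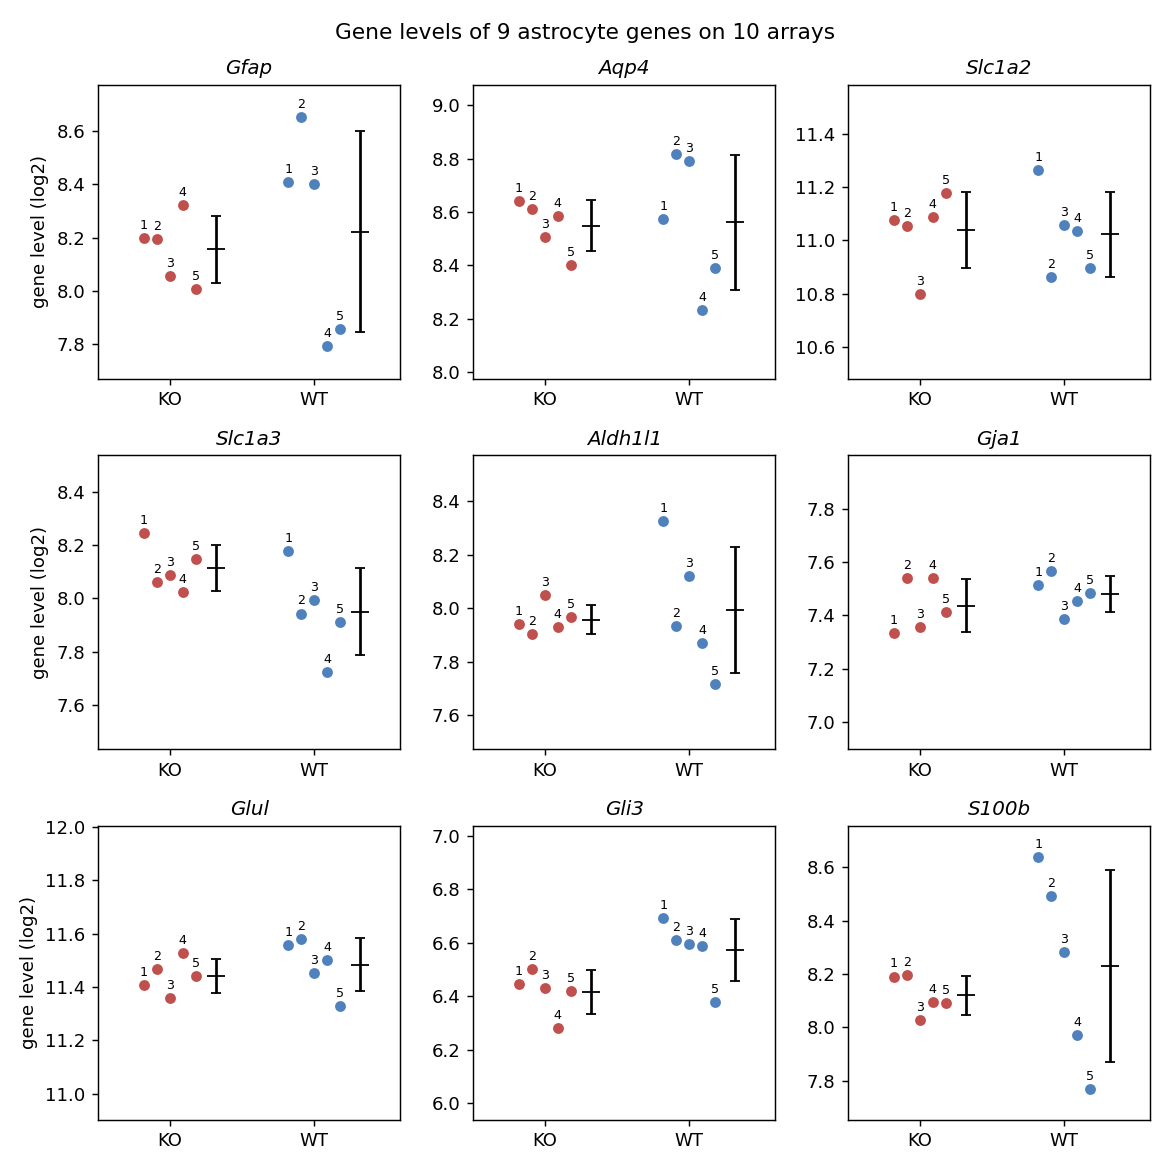
Gene levels (log2) of the 9 astrocyte genes, KO arrays in red left of WT arrays in blue, numbered by replicate; black marks give the mean and SD (n = 5), and every panel spans the same log2 range. The KO and WT arrays overlap in every panel, and Gfap and S100b spread more widely among WT arrays than among KO arrays.

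Of the genes of glutamate handling, Slc1a3 had the highest difference of the 9 genes. Slc1a3 was at 8.25, 8.06, 8.09, 8.02 and 8.15 on KO arrays 1 to 5, and at 8.18, 7.94, 7.99, 7.72 and 7.91 on WT arrays 1 to 5. Every KO array was above every WT array but array 1, and array 1 was the highest array of each genotype. The difference was 0.16 with a standard error (SE) of 0.09 and a 95% interval of -0.02 to 0.35, and it did not pass (limma adjusted p = 0.727). Without WT arrays 4 and 5 it was 0.08 (SE 0.08).

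Slc1a2, the main glutamate transporter of the forebrain, was at 11.08, 11.05, 10.80, 11.09 and 11.18 on KO arrays 1 to 5 and at 11.26, 10.86, 11.06, 11.03 and 10.90 on WT arrays 1 to 5. The lowest array was KO array 3 and the highest WT array 1, so the ranges of the genotypes nearly coincided. The difference was 0.02 (SE 0.09), with a 95% interval of -0.19 to 0.22 (limma adjusted p = 0.984). The level of Slc1a2 rests on 24 probe sets above the filter; of its 25 probe sets, 8 carry an older name in the platform annotation that the reference table gives as a synonym of Slc1a2, and without those 8 the difference was 0.04.

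Glul lay between 11.36 and 11.53 on KO arrays and between 11.33 and 11.58 on WT arrays. The WT range took in the whole KO range, and the difference was -0.04 (SE 0.07, 95% interval -0.20 to 0.11, limma adjusted p = 0.919).

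Among the genes of gap junctions, water transport and the cytoskeleton, Gja1 lay between 7.33 and 7.54 on KO arrays and between 7.39 and 7.56 on WT arrays. Its difference was -0.04 (SE 0.07, 95% interval -0.20 to 0.11, limma adjusted p = 0.919), and it was the only one of the 9 genes with a larger SD in KO (0.10) than in WT (0.07).

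Aqp4 was at 8.64, 8.61, 8.51, 8.58 and 8.40 on KO arrays 1 to 5, and at 8.58, 8.82, 8.79, 8.23 and 8.39 on WT arrays 1 to 5. All KO arrays fell inside the WT range. The difference was -0.01 (SE 0.11, 95% interval -0.25 to 0.22, limma adjusted p = 0.988), and -0.18 (SE 0.08, adjusted p = 0.464) without WT arrays 4 and 5, while without WT array 2 it was 0.05.

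Gfap was at 8.20, 8.19, 8.06, 8.32 and 8.01 on KO arrays 1 to 5, and at 8.41, 8.65, 8.40, 7.79 and 7.86 on WT arrays 1 to 5. WT arrays 1 to 3 were above every KO array and WT arrays 4 and 5 below every KO array, so the WT arrays lay on both sides of the KO arrays. The means were 8.16 ± 0.13 in KO and 8.22 ± 0.38 in WT (SD, n = 5 each), a difference of -0.07 (SE 0.15, 95% interval -0.38 to 0.25, limma adjusted p = 0.944). Without WT arrays 4 and 5 the difference was -0.33 (SE 0.09, adjusted p = 0.255), and without WT array 2 it was 0.04.

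S100b had the same shape. It was at 8.19, 8.20, 8.03, 8.09 and 8.09 on KO arrays 1 to 5, and at 8.64, 8.49, 8.28, 7.97 and 7.77 on WT arrays 1 to 5. Again WT arrays 1 to 3 were above and WT arrays 4 and 5 below all KO arrays. The means were 8.12 ± 0.07 in KO and 8.23 ± 0.36 in WT (SD, n = 5 each), a difference of -0.11 (SE 0.14, 95% interval -0.41 to 0.18, limma adjusted p = 0.884), and -0.35 (SE 0.09, adjusted p = 0.215) without WT arrays 4 and 5. It was -0.0096 without WT array 1 and -0.046 without WT array 2.

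Aldh1l1 was at 7.94, 7.90, 8.05, 7.93 and 7.97 on KO arrays 1 to 5, and at 8.33, 7.93, 8.12, 7.87 and 7.72 on WT arrays 1 to 5. The KO arrays spanned 0.14 and the WT arrays 0.61 on the log2 scale, with WT array 1 highest and WT array 5 lowest. The difference was -0.04 (SE 0.10, 95% interval -0.25 to 0.18, limma adjusted p = 0.957), and 0.05 without WT array 1.

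Gli3, the only transcription factor of the 9, was at 6.45, 6.50, 6.43, 6.28 and 6.42 on KO arrays 1 to 5, and at 6.69, 6.61, 6.60, 6.59 and 6.38 on WT arrays 1 to 5. WT arrays 1 to 4 were above all KO arrays, and WT array 5 was below all KO arrays but array 4. The difference of -0.16 (SE 0.08, 95% interval -0.32 to 0.01) had the smallest limma p of the 9 genes and did not pass (adjusted p = 0.718). Without WT arrays 4 and 5 it was -0.22 (SE 0.07, adjusted p = 0.303).

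**Figure D2:**
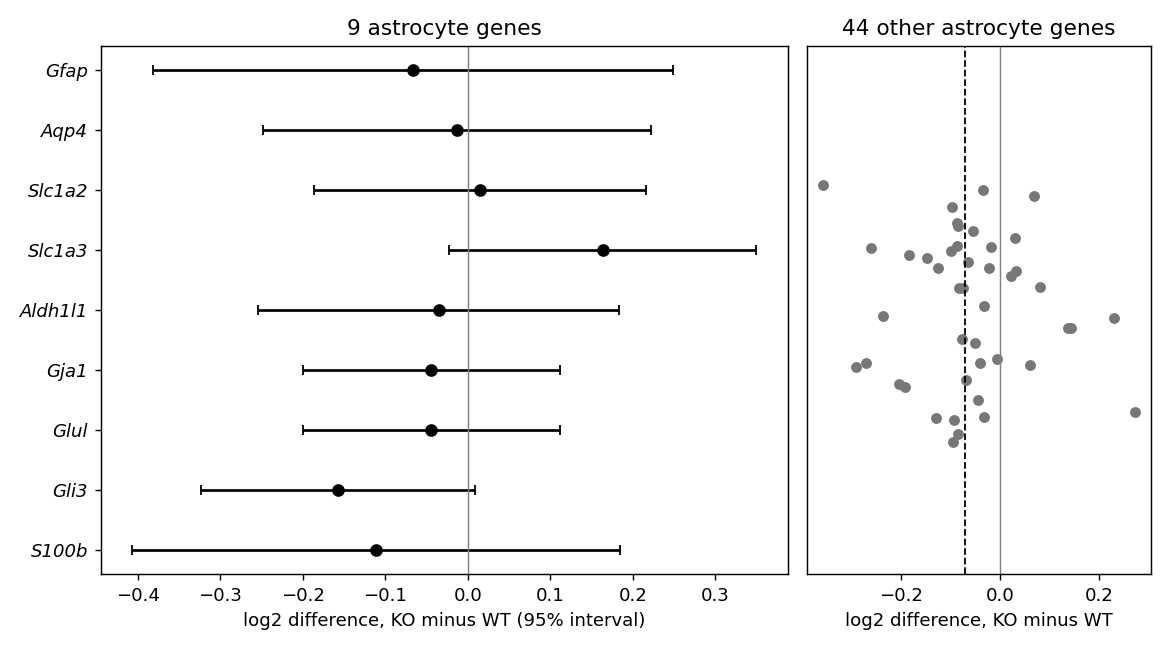
KO minus WT differences on the log2 scale. Left, the 9 astrocyte genes with the 95% interval of the limma fit, every one of which includes 0; right, the 44 other astrocyte genes, each a grey point spread vertically for legibility, with the dashed line at their median of -0.07.

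The WT arrays spread more widely than the KO arrays in 8 of the 9 genes, against 73.2% of all genes. The SD of S100b was 0.07 in KO and 0.36 in WT, that of Gfap 0.13 in KO and 0.38 in WT, and that of Aldh1l1 0.06 in KO and 0.24 in WT (n = 5 each). With WT arrays 4 and 5 left out the WT SDs were 0.18 for S100b, 0.14 for Gfap and 0.20 for Aldh1l1 (n = 3). The difference in spread between the genotypes was not tested.

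The single probe sets, each covering about 1 exon, show whether a gene level rests on a few of them. Of the 181 probe sets 160 were above the filter, 95 with a difference below 0 and 65 above. In limma over all 628415 tested probe sets 0 of the 160 passed, against 0.00239% of all, the smallest adjusted p being 0.770, and 4 (2.5%) had an unadjusted p under 0.05, against 5.97% of all.

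Slc1a3 held 3 of these 4 and had 19 of 27 probe sets above 0. Probe set 4476214 of Slc1a3 was at 6.76, 6.38, 6.24, 6.23 and 6.83 on KO arrays 1 to 5 and at 5.90, 6.16, 5.63, 5.98 and 5.73 on WT arrays 1 to 5. It was the only 1 of the 160 probe sets whose KO arrays lay wholly apart from the WT arrays, where 1.1% of all tested probe sets did, and it differed by 0.61 (SE 0.18, limma adjusted p = 0.770). The other 2, 4982215 and 5126618, differed by 0.47 (SE 0.19) and 0.45 (SE 0.19), with overlapping arrays.

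In Gfap a single probe set stood out. Probe set 4711062 was at 5.95, 5.51, 4.86, 5.59 and 6.08 on KO arrays 1 to 5 and at 6.52, 6.25, 5.90, 6.51 and 6.35 on WT arrays 1 to 5, a difference of -0.71 (SE 0.23, limma adjusted p = 0.784). It was the dimmest of the 16 Gfap probe sets above the filter, and unlike the gene level it was as high on WT arrays 4 and 5 as on WT arrays 1 and 2. Of the other 15 probe sets of Gfap, 7 had a difference above 0.

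In Gli3 15 of 21 probe sets were below 0, from -0.45 to 0.06 over all 21, and in S100b 4 of 5, from -0.22 to 0.04. In Aldh1l1 20 of 27 were below 0, in Glul 9 of 11, in Gja1 7 of 10, in Aqp4 11 of 19 and in Slc1a2 12 of 24. The probe set of smallest p in each of these 7 genes had an adjusted p of 0.853 or more: 4927942 in Gli3 (-0.43), 4540190 in S100b (-0.15), 5498704 in Aldh1l1 (0.25), 4888165 in Glul (0.20), 5287365 in Gja1 (-0.20), 4727892 in Aqp4 (0.47) and 4672270 in Slc1a2 (0.21).

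**Figure D3:**
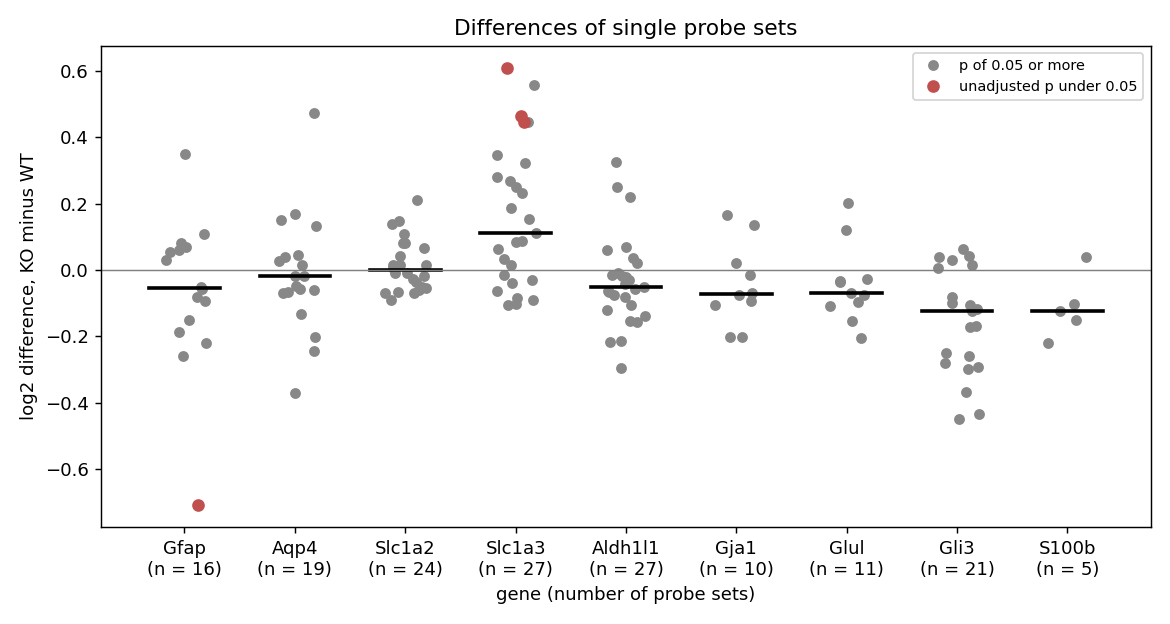
KO minus WT difference (log2) of each probe set above the filter, by gene; the bar is the median over the gene's probe sets, and red points have an unadjusted limma p under 0.05. The 4 red points are 3 probe sets of Slc1a3 above 0 and 1 of Gfap at -0.71, and none passed after adjustment.

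The probe sets also showed how widely a gene's profile over arrays was shared by its exons. On WT array 2, where Gfap was highest, 15 of its 16 probe sets were above their own WT mean, and on WT arrays 4 and 5 only 1 and 2 of 16 were. Aqp4 had 18 of 19 above on WT array 2 and 1 of 19 on WT array 4. Slc1a2 ran its own way, with 23 of 24 above on WT array 1, 1 of 24 on WT array 2 and, among the KO arrays, 1 of 24 on KO array 3 and 20 of 24 on KO array 5. On these arrays nearly all probe sets of a gene lay to one side of their mean. In Gja1, by contrast, between 4 and 7 of 10 probe sets were above their genotype mean on every array.

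The 9 genes were then compared with each other over arrays, as deviations from the mean of the genotype, since 5 arrays of a genotype are too few for a correlation of their own. All 9 genes were above their WT mean on WT array 1 and 1 of 9 on WT array 5, while the KO arrays had 2 to 7 of 9 above the KO mean. Of the 36 pairs of genes 32 had a Pearson r above 0, with a median of 0.43 and a range of -0.22 to 0.92. With the mean deviation of all genes removed, 12 of the 36 were below 0 and the median r was 0.25, as they also were when a gene level was the median over its probe sets. After Benjamini-Hochberg adjustment over the 36 pairs 0 passed by Pearson's r and 0 by Spearman's rho, in an exact two-sided permutation within genotype, and 2 had an unadjusted Pearson p under 0.05.

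Those 2 pairs were Gfap with Aqp4 and Gli3 with S100b. Gfap and Aqp4 had an r of 0.92 (exact permutation p = 0.00472, adjusted p = 0.105) and a rho of 0.84 (exact permutation p = 0.0265, adjusted p = 0.269). The r was 0.69 without WT arrays 4 and 5, which were also the arrays farthest from the median of Gfap (exact permutation p = 0.106). Gli3 and S100b had an r of 0.75 (exact permutation p = 0.00583, adjusted p = 0.105) and a rho of 0.88 (exact permutation p = 0.00319, adjusted p = 0.115). Their r was 0.73 without WT array 5 and KO array 4, the farthest from the median of Gli3. Without WT arrays 4 and 5 it was 0.52 (exact permutation p = 0.161, adjusted p = 0.632).

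Further pairs differed with and without WT arrays 4 and 5. Gfap and S100b had an r of 0.84 (exact permutation p = 0.0643, adjusted p = 0.453) and a rho of 0.85 (exact permutation p = 0.0209, adjusted p = 0.269), and without those arrays the r was 0.23. Gja1 and Glul went the other way: their r was 0.60 (exact permutation p = 0.0633, adjusted p = 0.453) with a rho of 0.71 (exact permutation p = 0.0299, adjusted p = 0.269), and without WT arrays 4 and 5 it was 0.91 (exact permutation p = 0.00417, adjusted p = 0.15); without KO arrays 4 and 2, farthest from the median of Gja1, it was 0.47. Over all 36 pairs the median r was 0.11 without WT arrays 4 and 5, with 21 pairs above 0.

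**Figure D4:**
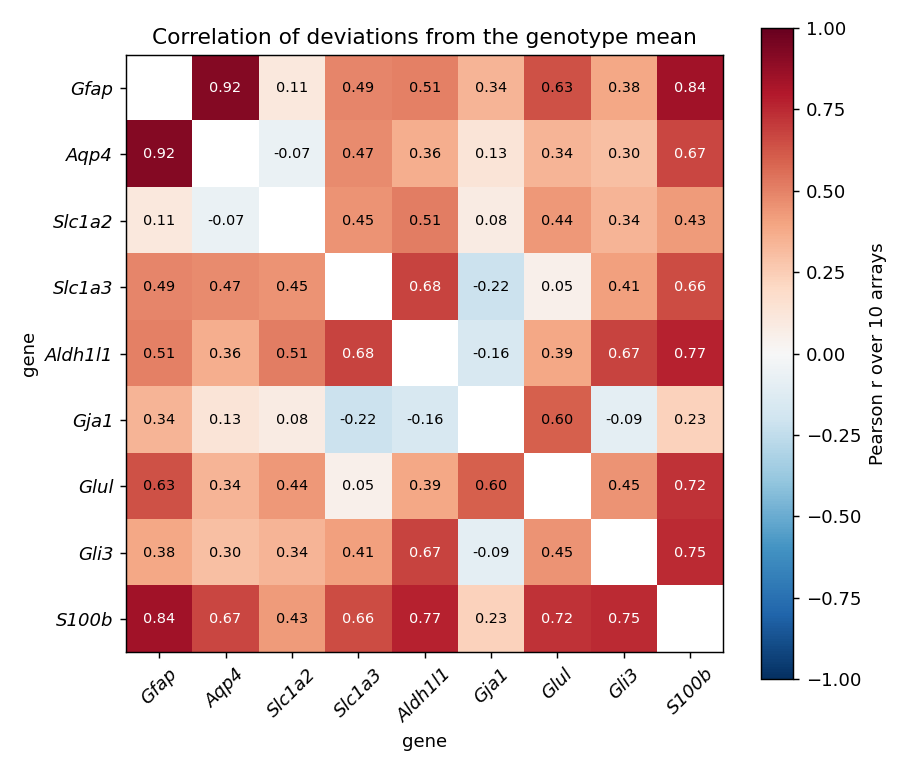
Pearson r between the levels of each pair of the 9 genes, as deviations from the genotype mean over 10 arrays. Gfap and Aqp4 reach 0.92, S100b is above 0 with all 8 other genes, and Gja1 is below 0 with 3 of them.

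Over 10 arrays S100b was the gene most like the rest. Its deviations had an r of 0.97 with the mean of the other 8 genes over 10 arrays, and only 4 of the genes outside the 9 had a higher one. Gfap followed at 0.81, with 1104 other genes higher, and Aldh1l1 at 0.69, with 2935 higher. Slc1a2 at 0.35 and Gja1 at 0.17 were below the median of all genes, which was 0.38 and 0.36 against the same means. The r of S100b with each of the other 8 genes ran from 0.23 to 0.84 over 10 arrays. Without WT arrays 4 and 5 it ran from -0.21 (with Aqp4) to 0.54 (with Glul). Genes of many kinds moved together over the arrays: the mean deviation of all 16367 genes had an r of 0.83 with the mean of the 9 genes (a description over 10 arrays, which share the probe sets and the normalization). The median r of all genes with the mean of the 9 was 0.36 over 10 arrays and -0.02 without WT arrays 4 and 5. That of the other astrocyte genes was 0.67 over 10 arrays and 0.34 without them. That of oligodendrocyte precursor genes was 0.39 over 10 arrays and 0.47 without them.

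**Figure D5:**
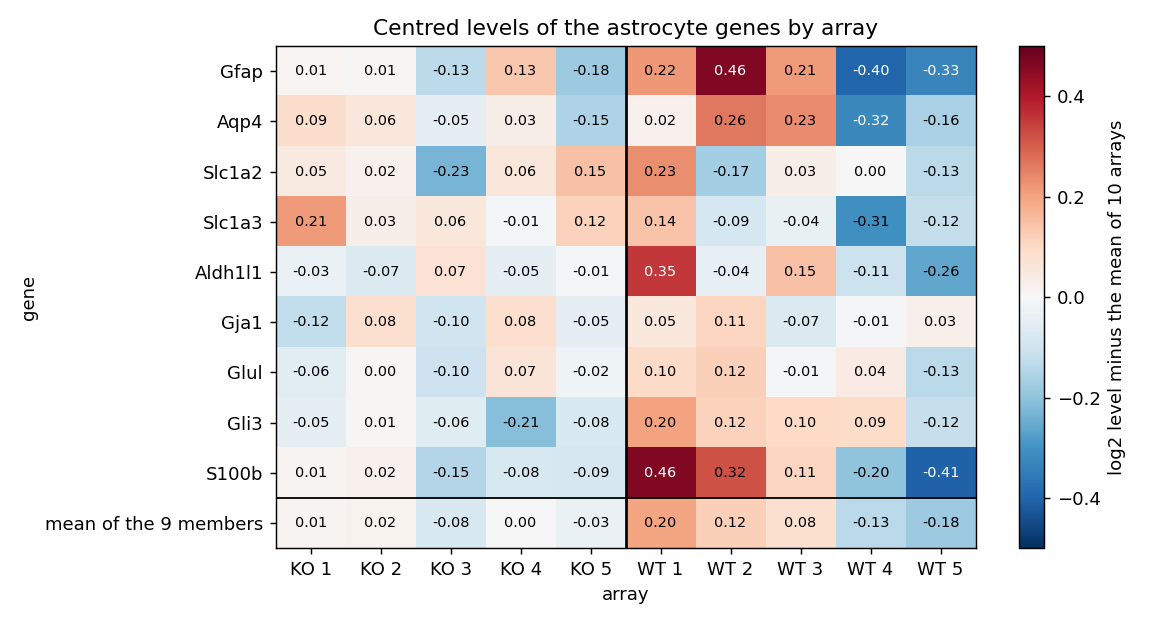
Level of each gene minus its mean over the 10 arrays (log2), KO arrays left of WT arrays, with the mean of the 9 genes in the bottom row. The mean lies between -0.08 and 0.02 on KO arrays and between -0.18 and 0.20 on WT arrays, with WT arrays 4 and 5 lowest.

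The sequences upstream of 4 of these genes are shown because S100b had an r of 0.84 with Gfap and 0.75 with Gli3 over the arrays, neither of which passed, and Slc1a3 had the highest difference, which did not pass either. They are the 250 bases before the annotated start, 5′ to 3′ on the gene's strand, from RefSeq (build GRCm38.p6, in which 8 of the 9 genes were matched). They lie at chr10:76253586-76253835 (plus strand) for S100b, chr11:102897201-102897450 (minus strand) for Gfap, chr13:15463473-15463722 (plus strand) for Gli3 and chr15:8710808-8711057 (minus strand) for Slc1a3. Capitals mark a motif of nuclear factor I (TTGGC) and the STAT site (TTCNNNGAA), each sought on both strands.
S100b: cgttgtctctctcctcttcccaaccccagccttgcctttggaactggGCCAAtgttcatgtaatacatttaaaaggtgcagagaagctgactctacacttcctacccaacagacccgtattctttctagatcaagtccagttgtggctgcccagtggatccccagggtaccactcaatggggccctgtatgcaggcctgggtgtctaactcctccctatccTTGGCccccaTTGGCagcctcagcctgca
Gfap: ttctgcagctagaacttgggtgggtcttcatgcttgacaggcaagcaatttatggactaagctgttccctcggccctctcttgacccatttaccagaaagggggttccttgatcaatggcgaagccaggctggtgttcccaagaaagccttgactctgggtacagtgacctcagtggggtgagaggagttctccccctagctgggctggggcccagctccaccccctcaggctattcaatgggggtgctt
Gli3: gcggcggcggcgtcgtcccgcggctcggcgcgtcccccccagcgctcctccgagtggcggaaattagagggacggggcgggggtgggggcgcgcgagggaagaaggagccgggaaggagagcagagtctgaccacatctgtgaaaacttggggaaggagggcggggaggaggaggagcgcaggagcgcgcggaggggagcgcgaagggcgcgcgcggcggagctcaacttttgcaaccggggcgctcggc
Slc1a3: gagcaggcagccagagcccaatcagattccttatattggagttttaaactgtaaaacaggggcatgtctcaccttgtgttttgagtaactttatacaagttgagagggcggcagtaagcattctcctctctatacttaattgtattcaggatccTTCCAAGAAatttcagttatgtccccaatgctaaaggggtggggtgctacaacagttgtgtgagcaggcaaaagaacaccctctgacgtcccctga
The window of S100b held 3 nuclear factor I motifs and that of Slc1a3 held 1 STAT site, while those of Gfap and Gli3 held neither. Of all 32851 RefSeq windows of this length 41.5% held that motif and 7.02% the STAT site, against 3 and 1 of the 8 windows matched here. The core of the GLI site (ACCACCC) was in 0 of the 8, against 3.92% of all windows, and the E-box (CANNTG), which may overlap the other motifs, in 7 of 8, against 66.2%. The window of Gli3 was 72.8% G and C, against a median of 52.4% over all windows. These matches describe letters only.

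Other genes of astrocytes and of the pathways of the 9 genes, from lists of textbook knowledge, did not pass either. Of 45 other astrocyte genes 44 were measured, 0 passed in either direction, and 7 (15.9%) had an unadjusted limma p under 0.05, against 6.98% of all genes. Differences were below 0 in 34 of 44 (77.3%), against 50.7% of all genes, with a median of -0.07, which was -0.17 without WT arrays 4 and 5 and, with 27 of 44 below 0 in both cases, -0.03 without WT array 1 and -0.02 without WT array 2.

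The 3 of smallest p had differences below 0. Among the 7 with an unadjusted limma p under 0.05, Dio2 (0.27, SE 0.11) and Mertk (0.23, SE 0.10) were above 0 and the others below. Gpr37l1, an orphan receptor of astrocytes, averaged 9.36 ± 0.08 in KO and 9.65 ± 0.18 in WT (SD, n = 5 each), a difference of -0.29 (SE 0.09, limma adjusted p = 0.630), and was the only 1 of the 44 in which the arrays of the genotypes did not overlap. Itih3, an inhibitor heavy chain of the extracellular matrix, averaged 7.34 ± 0.16 in KO and 7.70 ± 0.32 in WT, a difference of -0.36 (SE 0.13, adjusted p = 0.693). Itih3 passed with the first principal component as a covariate, a setting chosen after seeing the data (-0.45, SE 0.07, adjusted p = 0.0367). Kcnj10, the potassium channel Kir4.1 that buffers potassium at endfeet, averaged 7.44 ± 0.10 in KO and 7.71 ± 0.23 in WT, a difference of -0.27 (SE 0.10, adjusted p = 0.693).

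Genes known to rise in reactive astrocytes had differences in both directions. Of 30 measured 0 passed and 5 (16.7%) had an unadjusted p under 0.05, against 6.98% of all genes, with 23 (76.7%) below 0, against 50.7% of all genes, and a median of -0.08. Lcn2, the secreted lipocalin of reactive astrocytes, was at 0.53 (SE 0.19, limma adjusted p = 0.693) and Fkbp5, which binds the glucocorticoid receptor complex, at 0.43 (SE 0.14, adjusted p = 0.630), whereas Psmb8, an immunoproteasome subunit, was at -0.32 (SE 0.11, adjusted p = 0.693). Among intermediate filament genes, Nes was at -0.22 (SE 0.11), Synm at 0.07 (SE 0.07) and Vim at -0.06 (SE 0.07). Of these 8 genes 0 passed, 0 had an unadjusted limma p under 0.05 and 4 were below 0.

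In the glutamate and glutamine list 0 of 13 passed and 5 (38.5%) were below 0, against 50.7% of all genes. The median was 0.03, and 2 of 13 (15.4%) had an unadjusted limma p under 0.05, against 6.98% of all genes. The glutamine exporter Slc38a3 was at -0.26 (SE 0.10), and the neuronal genes Slc17a7, the vesicular glutamate transporter VGLUT1, and Slc1a1, the neuronal transporter EAAC1, were at 0.24 (SE 0.09) and 0.15 (SE 0.10). In the gap junction, endfoot and ion list 0 of 13 passed and 9 (69.2%) were below 0, against 50.7% of all genes, with a median of -0.07. In this list 4 of 13 (30.8%) had an unadjusted limma p under 0.05, against 6.98% of all genes. Kcnj10 is 1 of them and is also counted among the other astrocyte genes. Dmd, the dystrophin gene, is another and was above 0 (0.22, SE 0.10). Its smallest p values were those of Gjb2, connexin 26, at -0.27 (SE 0.08, limma adjusted p = 0.614), Kcnj10, and the aquaglyceroporin Aqp9 at -0.22 (SE 0.09).

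Of the hedgehog pathway, in which Gli3 acts, 0 of 11 passed and 9 (81.8%) were below 0, against 50.7% of all genes. The median was -0.03, and 1 of 11 (9.09%) had an unadjusted limma p under 0.05, against 6.98% of all genes. The ligand gene Shh was at -0.23 (SE 0.07, limma adjusted p = 0.648), the signal transducer Smo at -0.14 (SE 0.08) and the co-receptor Cdon at 0.13 (SE 0.08). Of the S100 family and the receptor gene Ager 0 of 7 passed and 5 were below 0, with a median of -0.12. S100a13 was at -0.24 (SE 0.09), S100a16 at -0.25 (SE 0.11) and S100a6 at 0.29 (SE 0.12). These 3 of 7 (42.9%) had an unadjusted limma p under 0.05, against 6.98% of all genes. Of the folate one-carbon genes, the pathway of Aldh1l1, 0 of 10 passed and 0 had an unadjusted limma p under 0.05. Their median was 0.04, with 7 above 0, led by Mthfd1l at 0.10, Tyms at 0.10 and Mtrr at 0.09 (SE 0.08 each).

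Markers of other cells in the dissected area were measured beside them. As means centred over the 10 arrays, 13 oligodendrocyte and myelin genes lay between -0.39 and 0.01 on KO arrays and between -0.43 and 0.48 on WT arrays, with all 13 below 0 in KO minus WT (median -0.28). The 11 hypothalamus markers lay between -0.29 and -0.10 on KO arrays and between 0.01 and 0.45 on WT arrays (10 of 11 below 0, median -0.22). These list means did not overlap, while those of every other list did, and the lists were chosen with earlier results of these data known. Single markers differed by -1.88 to 0.22, so the list mean weighs a few of them most. The 44 other astrocyte genes lay between -0.09 and 0.01 on KO arrays and between -0.13 and 0.22 on WT arrays. The 14 microglia genes lay between -0.08 and 0.03 on KO arrays and between -0.15 and 0.18 on WT arrays. The 13 endothelial and vessel wall genes lay between -0.12 and 0.05 on KO arrays and between -0.14 and 0.20 on WT arrays. Both lists had WT arrays 4 and 5 as their lowest WT arrays, as did the mean of the 9 genes. So did the mean deviation of all genes from the genotype mean (-0.063 on WT array 4, -0.053 on WT array 5).

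The remaining lists were those of neurons (15 measured, 11 above 0, median 0.05), oligodendrocyte precursors (9 measured, 7 below 0, median -0.09), choroid plexus, ependyma and meninges (13 measured, 8 below 0, median -0.05) and striatum and intercalated cells (12 measured, 11 below 0, median -0.19). In none of these lists of other cells did a gene pass in limma over all genes, and in their members an unadjusted p under 0.05 was found in 6 of 11 hypothalamus markers (54.5%), 4 of 13 myelin genes (30.8%), 2 of 12 striatal (16.7%), 1 of 9 precursor (11.1%), 1 of 13 endothelial (7.69%) and 1 of 15 neuronal genes (6.67%), against 6.98% of all genes. None of the 14 microglia and 13 choroid genes had one. Their part in the values of the astrocyte genes was not tested.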

How the data were processed

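Amygdala RNA was measured on GeneChip Mouse Exon arrays, 5 per genotype. The authors deposited log2 values, 1 per probe set and array, made with the RMA method of Affymetrix Expression Console, per the submitters' processing notes; its version and the genome build are not stated in what was used here. Quantile normalization within RMA is meant to remove differences between arrays in overall signal. The array medians over all probe sets still ran from 4.95 (WT array 1) to 5.03 (WT array 4). Scanner files were not used here, so background correction and slide or scan blocks were not examined, and the number of arrays limits the precision. Of 1256831 probe sets, 318760 had exactly 1 gene in the platform annotation, and old symbols were updated through synonyms held by 1 gene (4227 of 22296 symbols). Gene levels are means over probe sets above 4.94, for genes with at least 3. KO and WT were compared with limma version 3.58.1 (lmFit, eBayes) in R (version 4.3.3; tables read by data.table, version 1.17.8), without covariates, two-sided, with Benjamini-Hochberg adjustment over all 16367 genes or 628415 probe sets and a threshold of 0.05. Correlations used exact permutation within genotype (14400 orders). The limma fit and the permutation test were tested on simulated data.

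The 9 genes and the 17 lists (the 9 genes included) were chosen with earlier results of these data known. Named genes are the 9, Klk8 and the 3 of smallest p of each list of astrocyte and pathway genes. The 10 genes most like the mean of the 9 are named too, and for each of the 9 the probe set of smallest p. Dio2, Mertk, Dmd and the 2 further probe sets of Slc1a3 were chosen after their values were seen. The rule also covers the lists of other cells, for which counts and medians only are printed. The labels do not say that replicate numbers mark a shared batch. Same-numbered KO and WT arrays had deviations correlating over genes at 0.0817 to 0.412, which is not over 0.1 in every pair, so the numbers were not used as pairs. Alternatives were other normalizations, filters and summaries, a replicate block, each array left out, array weights, another variance prior and a threshold of 0.1.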

Additional observations from a re-analysis of the deposited data

How the results depend on the processing

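No member passed at the gene level in any of 23 alternatives (207 member differences, smallest limma adjusted p = 0.215, without WT arrays 4 and 5), and none of their probe sets passed in any of 19. Gli3 and S100b stayed below 0 and Slc1a3 above 0 in all 23, though S100b was at -0.0096 without WT array 1. Slc1a3 ran from 0.076 (without WT arrays 4 and 5) to 0.22 (without WT array 1). With a stricter intensity filter of 6.50 it was at 0.095. Directions turned in 14 of the 207 differences. With each array centred on its median Aqp4 was at 0.0023. Without the intensity filter Gja1 was at 0.073, and with the median over probe sets Gja1 was at 0.021, Glul at 0.11 and Slc1a2 at -0.016. Without WT arrays 4 and 5, chosen after seeing the data, Slc1a2 was at -0.024. With 1 array left out in turn, the range was -0.17 to 0.041 for Gfap, -0.095 to 0.052 for Aqp4, -0.025 to 0.075 for Slc1a2 and -0.10 to 0.048 for Aldh1l1. With the replicate number as a block no member passed (0 of 9, smallest limma adjusted p = 0.434) and no probe set of theirs (0 of 160). The block moved the count of genes passing from 4 to 3 and that of probe sets from 15 to 0, and 4 of the 5 KO arrays correlated best with the WT array of their own number, a hint from the data. Of the other astrocyte genes 1, Itih3, passed with the first principal component as a covariate (chosen after seeing the data) and 0 in the other 22 alternatives. Of the 36 pairs, 2 passed with values as given (Gfap with Aqp4, permutation adjusted p = 0.00792, and Gfap with S100b, 0.0376), 2 with the first principal component removed (Gfap with Aqp4 and Glul with S100b, both 0.02; chosen after seeing the data), and 0 to 1 with an array left out, the 1 being Gli3 with S100b without KO array 3 or KO array 4 (exact permutation adjusted p = 0.0375). The causes were not tested. With 5 pools per genotype the 95% intervals of the 9 differences reach 0.20 to 0.41 from 0 on their wider side. Shifts within these intervals remained compatible with the values, and the intervals are not limits of detection. The threshold adjusted over all genes is stricter than these intervals, so shifts larger than these could have gone uncalled. Probe sets passing over the whole table numbered 0 to 102 across the alternatives, and the 4 genes passing numbered 2 to 8.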

Other observations

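Genes outside the 9 whose levels ran most like their mean over the 10 arrays, as deviations from the genotype mean, were Il10rb (Pearson r 0.98), Cryz (0.97), Mfsd6 (0.97), Rpl15 (0.97), Glo1 (0.97), Psd2 (0.97), Adprm (0.97), Snx5 (0.96), Cyp20a1 (0.96) and Nipsnap2 (0.96). None of the 10 is on the lists of astrocyte or other cell markers used here. Glo1, glyoxalase of methylglyoxal breakdown, differed by 0.02 (SE 0.11) between KO and WT, and Rpl15, a ribosomal protein gene, by 0.11 (SE 0.10); none of the 10 passed (limma adjusted p = 0.834 to 0.982). These likenesses are descriptions over 10 arrays that share 1 normalization.

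By list, the median r of single genes with the mean of the 9 was 0.78 for oligodendrocyte and myelin genes, 0.73 for microglia, 0.67 for other astrocyte genes and 0.66 for glutamate and glutamine handling, against 0.36 for all genes. It was 0.18 for genes of reactive astrocytes, 0.04 for the hedgehog pathway and -0.01 for the S100 family. Without WT arrays 4 and 5 the median r was 0.24 for oligodendrocyte and myelin genes, 0.31 for microglia, 0.34 for other astrocyte genes and 0.00035 for glutamate and glutamine handling, against -0.02 for all genes, and it was -0.0070 for genes of reactive astrocytes, -0.21 for the hedgehog pathway and -0.33 for the S100 family. The highest of all lists without these arrays was that of oligodendrocyte precursors, at 0.47 (0.39 over 10 arrays). Folate one-carbon genes were at 0.31 with and without them. The order of the lists thus differed with and without these arrays.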
